A study of Mus musculus with 6 samples.

Results

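The genes described here are the nuclear genes whose products form the complexes of oxidative phosphorylation, as they were measured by RNAseq in the livers of WT and *Txndc5*-deficient (KO) mice. They were chosen by name alone, as the genes whose symbols begin with *Nduf*, *Uqcr* or *Atp5*, the 4 genes *Sdha* to *Sdhd*, and the symbols made of *Cox* and a digit from 4 to 8, pseudogenes left out. The rule found 90 of the 16123 genes in the deposited table, 45 for complex I, 4 for complex II, 8 for complex III, 16 for complex IV and 17 for complex V. It also takes in assembly factors that share a family name, and *Ndufa4*, which bears a complex I name although its product is now regarded as a subunit of complex IV. *Cyc1*, a subunit of complex III, is left out by the rule. The 13 subunits encoded by mitochondrial DNA are not analysed here.

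WT mice were of the strain C57BL/6Rj, and KO mice (C57BL/6JRj-Txndc5<em2Mdnp>/Ciba) carried a CRISPR deletion of exon 3 of *Txndc5* and descended from a single founder. *Txndc5* encodes a protein disulfide isomerase of the endoplasmic reticulum. Both groups were males from heterozygous crosses, 2 months old at the start, that ate a purified chow diet for 4 weeks and were fasted for 16 h before sacrifice. Each genotype was read in 3 libraries, WT pools 1, 2 and 5 and KO pools 2, 3 and 4, each made from the liver RNA of 3 mice, so that animals within a pool cannot be told apart. The libraries held 44040160 to 46050030 clean reads, of which 91.6% to 93.7% were mapped. WT pools 1 and 5 came from 47.48 M raw reads and had 0.67% and 0.69% ribosomal RNA, whereas the other 4 libraries came from 49.97 M raw reads and had 0.26% to 0.40%. This difference in the libraries lies partly along the genotypes, and its part in the values below was not tested. The table gives 1 value per gene and genotype that combines the 3 pools, on the scale of reads divided by size factors (normalized reads). The midpoint of both values is the mean over the 6 libraries, and their ratio is that of a DESeq2 fit, pulled toward 0. The value of a genotype therefore need not equal the mean of its 3 pools. *Txndc5* itself was listed at 2697 in WT and 90.8 in KO, 29.7-fold lower, which is the direction the labels state.

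Oxidative phosphorylation is the last stage of respiration in the inner mitochondrial membrane. Complexes I and II take electrons from NADH and succinate and hand them to ubiquinone, complex III passes them on to cytochrome c, and complex IV gives them to oxygen. Complexes I, III and IV pump protons while they do so, and complex V, the ATP synthase, lets the protons flow back and makes ATP. In hepatocytes, which hold many mitochondria, this chain re-oxidizes the carriers reduced by the breakdown of fatty acids during a fast.

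Promoters of 5 members are shown first, because the letters searched in them come back at the end and because these genes span the range of the results. *Ndufa5* and *Cox7b* had the lowest KO over WT ratios of complexes I and IV among the members with a promoter window, *Ndufaf4* the lowest among those with a core site of NRF1, *Ndufs5* the lowest among those with a site of the ERR type, and *Sdhd* the highest ratio of all members with a mean of at least 10 normalized reads. The windows are from RefSeq on GRCm38.p6 and run from 250 bases before to 50 bases after an annotated start of the gene, 5′ to 3′ on its strand. *Ndufa5* has several windows, and the one shown, listed first, lies inside the span that GENCODE M21 gives for the gene. Letters marked in this window can therefore lie in transcribed sequence rather than in a promoter. Its YY1 letters begin with ATG, and whether they are coding sequence was not tested. They are chr6:24527477-24527776 on the minus strand for *Ndufa5*, chrX:106015450-106015749 on the plus strand for *Cox7b*, chr4:24897833-24898132 on the plus strand for *Ndufaf4*, chr4:123718137-123718436 on the minus strand for *Ndufs5* and chr9:50603800-50604099 on the minus strand for *Sdhd*. Capitals mark, on either strand, the letters CGCATGCG (NRF1 core), CCGGAAG (ETS), ATGGCGG (YY1), AAGGTCA (ERR), GGGCGG (SP) and TGACGTCA (CRE).
Ndufa5: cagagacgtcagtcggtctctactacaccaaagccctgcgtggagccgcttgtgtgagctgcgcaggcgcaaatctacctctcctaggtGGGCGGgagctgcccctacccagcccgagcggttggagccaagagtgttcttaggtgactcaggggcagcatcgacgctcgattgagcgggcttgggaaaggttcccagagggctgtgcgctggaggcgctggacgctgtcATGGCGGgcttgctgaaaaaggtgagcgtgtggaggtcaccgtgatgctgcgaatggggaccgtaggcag
Cox7b: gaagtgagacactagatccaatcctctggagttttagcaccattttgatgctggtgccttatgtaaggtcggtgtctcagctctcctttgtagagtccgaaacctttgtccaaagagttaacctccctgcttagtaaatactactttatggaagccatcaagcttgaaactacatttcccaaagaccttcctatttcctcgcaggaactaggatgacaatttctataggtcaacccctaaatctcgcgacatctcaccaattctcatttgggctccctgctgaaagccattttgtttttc
Ndufaf4: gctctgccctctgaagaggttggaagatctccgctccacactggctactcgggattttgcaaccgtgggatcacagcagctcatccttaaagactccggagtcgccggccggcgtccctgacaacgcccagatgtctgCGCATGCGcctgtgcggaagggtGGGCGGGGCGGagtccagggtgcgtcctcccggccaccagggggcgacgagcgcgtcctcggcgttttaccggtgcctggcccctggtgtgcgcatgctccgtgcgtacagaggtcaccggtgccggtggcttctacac
Ndufs5: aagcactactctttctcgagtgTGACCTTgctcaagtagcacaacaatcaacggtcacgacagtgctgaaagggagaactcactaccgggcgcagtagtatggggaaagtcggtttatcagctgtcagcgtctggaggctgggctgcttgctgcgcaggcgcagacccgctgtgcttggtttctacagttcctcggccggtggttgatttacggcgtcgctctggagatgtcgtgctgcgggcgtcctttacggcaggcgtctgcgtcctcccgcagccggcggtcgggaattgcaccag
Sdhd: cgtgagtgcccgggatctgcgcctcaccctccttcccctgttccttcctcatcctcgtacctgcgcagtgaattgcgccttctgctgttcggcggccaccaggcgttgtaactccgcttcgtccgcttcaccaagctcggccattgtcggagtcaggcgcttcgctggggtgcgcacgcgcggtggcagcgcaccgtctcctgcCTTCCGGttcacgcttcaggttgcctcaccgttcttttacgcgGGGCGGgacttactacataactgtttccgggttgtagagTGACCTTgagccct
In the *Ndufa5* window the SP letters began at base 90 and the YY1 letters at base 231. The *Cox7b* window held none of the 6 motifs. In the *Ndufaf4* window the NRF1 core began at base 139 and SP letters, which overlap each other, at bases 162 and 167. *Ndufs5* had the ERR letters on the reverse strand from base 23. *Sdhd* had the ETS letters on the reverse strand from base 205, SP letters from base 248 and ERR letters on the reverse strand from base 287.

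Most members had a lower value in KO than in WT livers, by a small factor. Of the 87 members with a mean value of at least 10 normalized reads, 79 were lower in KO and 8 were higher. In all 11367 genes of the table with such a mean, 57.7% were lower in KO. The median log2 ratio of KO over WT was −0.21 for the members and −0.05 for all genes, that is a level 13.3% lower in KO for the median member against 3.22% for the median gene. A factor of 1.2 was used to name single genes. By this, 28 members were lower in KO, 1 was higher and 58 lay within the factor, where 21.1% of all genes were lower and 11.7% were higher. The lower share among the members was 32.2%. The excess depends on the centre and on the factor. Centred on the median of all genes, 15 members (17.2%) and 17.3% of all genes were lower, and at 1.5-fold 2 members (2.30%) and 5.79% of all genes were. At 1.1-fold, without centring, 59 members (67.8%) and 35.9% of all genes were lower. At 1.2-fold without centring, 27 of the 80 members with a mean of at least 100 were lower, against 14.8% of all such genes. With a mean of at least 1000, 19 of 64 members and 11.7% of all such genes were. Below the median of all genes lay 74 of the 87 members. Because 1 value per genotype was used, the spread between pools is not known from it, and no test was run on these ratios except for a few weak members described below. The values come from a DESeq2 fit that pulls ratios toward 0, so that a ratio can be nearer to 0 than that of the reads. The size of this pull was seen only for the weak members and was not tested for the others. The members made up 1.24% of the summed values of all genes in WT and 1.17% in KO.

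**Figure D1:**
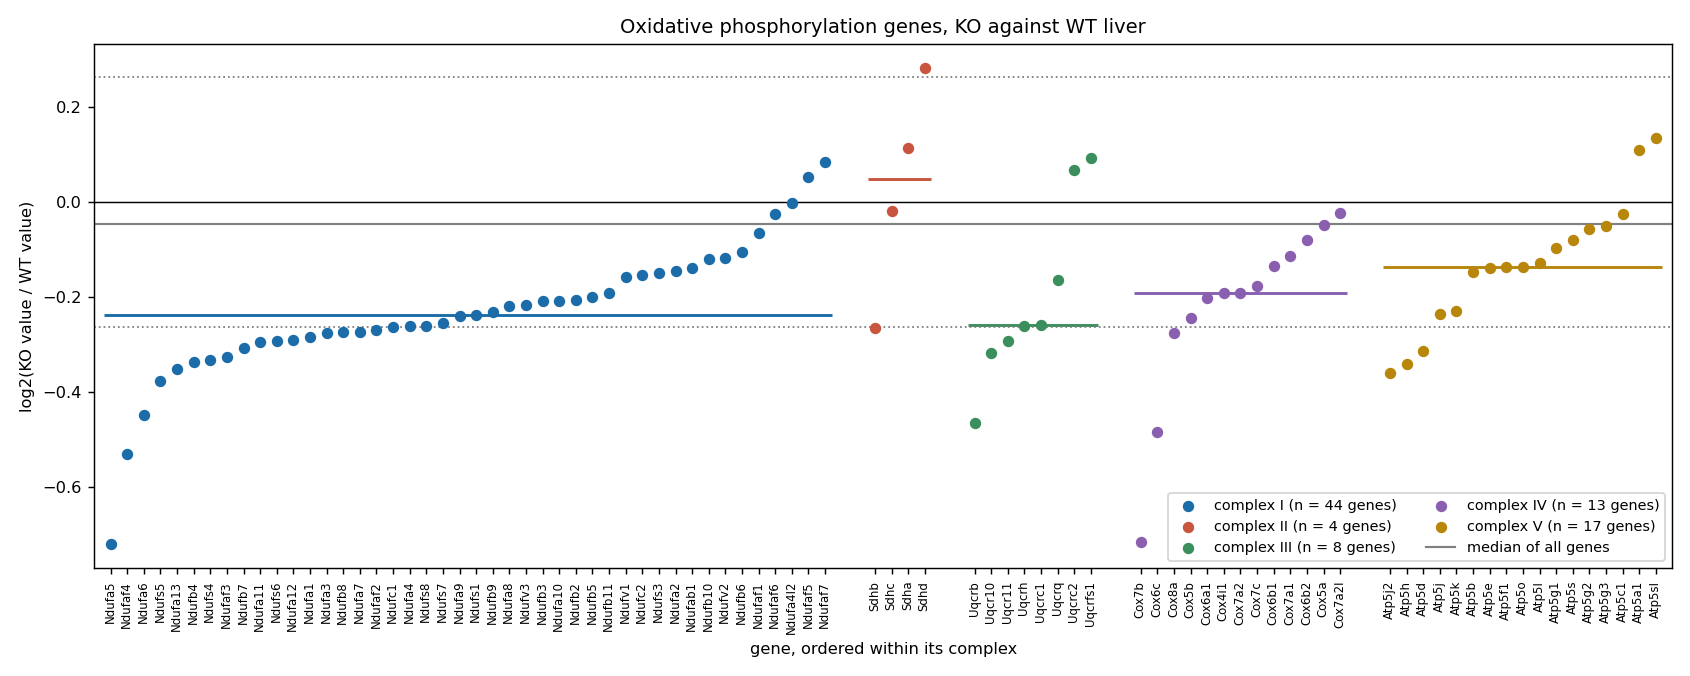
Log2 ratio of the KO over the WT value (y axis) of 86 of the members with a mean value of at least 10 normalized reads, ordered within their complex (x axis), with 1 point per gene, the median of each complex as a coloured bar, the median of all genes as a grey line and 1.2-fold in either direction as dotted lines. Complex I, III, IV and V members lie mostly below 0, *Ndufa5* and *Cox7b* lie lowest, and the 4 points of complex II spread from −0.27 to 0.28.

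Complex I, the NADH dehydrogenase, had the most members and held the member with the lowest ratio. Its 45 members had a median log2 ratio of −0.24, and 43 were lower in KO. By the factor of 1.2 or more, 18 (40%) were lower and 0 were higher. Such counts in the complexes and their parts are to be read against the 21.1% of all genes lower and 11.7% higher. *Ndufa5*, a subunit of the peripheral arm that reaches into the matrix, lies on the minus strand of chromosome 6 (24518666 to 24528013, GRCm38). With 477 normalized reads in WT and 290 in KO it was 1.65-fold lower (log2 ratio −0.72), and 3.31% of all genes lay at this ratio or lower.

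The accessory subunits of complex I, which surround the catalytic core, numbered 30 by name, *Ndufa4* among them, and all 30 were lower in KO. Their median was −0.26, and 15 of them (50%) passed 1.2-fold. In the peripheral arm, *Ndufa6*, which docks an acyl carrier protein, was at 1950 in WT and 1430 in KO (log2 ratio −0.45). *Ndufs4*, whose loss causes Leigh syndrome, was at 450 and 357 (−0.33). *Ndufs6* had values of 1216 and 993 (−0.29), *Ndufa12* of 942 and 770 (−0.29) and *Ndufa7* of 2733 and 2260 (−0.27), all 3 from the part of the arm that binds NADH. In the membrane arm and at its junction, *Ndufa13*, also known as GRIM-19, was at 3677 and 2883 (−0.35), *Ndufb4* at 1424 and 1127 (−0.34), *Ndufa11* at 2304 and 1878 (−0.29), *Ndufa1* at 613 and 504 (−0.28), *Ndufa3* at 1928 and 1592 (−0.28), *Ndufb8* at 3097 and 2561 (−0.27) and *Ndufc1* at 306 and 255 (−0.26). *Ndufs5* and *Ndufb7*, which face the intermembrane space, were at 589 and 453 (−0.38) and at 3360 and 2715 (−0.31). The other 15 accessory subunits lay between −0.26 and −0.11, the highest being *Ndufb6* at 485 and 451. *Ndufc1* was the last to pass the factor and *Ndufa4*, at 1720 in WT and 1435 in KO (−0.26), the first to miss it, with ratios that round to the same value.

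The 7 nuclear-encoded core subunits of complex I, which carry the flavin and the iron-sulfur clusters, were also all lower in KO, with a median of −0.16, but 0 of them passed 1.2-fold. *Ndufs8* was at 1784 in WT and 1490 in KO (−0.26), *Ndufs7* at 2950 and 2474 (−0.25) and *Ndufs1* at 614 and 521 (−0.24). *Ndufv1*, which oxidizes NADH, was at 3180 and 2851 (−0.16). *Ndufs3* was at 2418 and 2179 (−0.15) and *Ndufv2* at 1312 and 1209 (−0.12).

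The 8 assembly factors or related genes with a complex I name were mixed, with a median of −0.05 and 3 (37.5%) past 1.2-fold. *Ndufaf4* was at 165 in WT and 114 in KO (−0.53), second lowest in complex I. *Ndufaf3*, which acts together with it on the ubiquinone-binding module, was at 282 and 225 (−0.33). *Ndufaf2*, a paralogue of *Ndufa12* that holds its place during assembly, was at 82.0 and 68.1 (−0.27). *Ndufaf7*, a methyltransferase, had the highest ratio of complex I, with 107 and 114 (0.08).

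Complex II, succinate dehydrogenase, which also belongs to the citrate cycle, was split. Of its 4 subunits, 2 were lower and 2 were higher in KO, and the median log2 ratio was 0.05. *Sdhb*, the iron-sulfur subunit, was at 5427 in WT and 4515 in KO (−0.27), the lowest of the complex. *Sdha*, the flavoprotein, was at 3644 and 3943 (0.11). Of the anchors in the membrane, *Sdhc* was at 2442 and 2411 (−0.02), and *Sdhd* (minus strand of chromosome 9, 50596357 to 50603812, GRCm38) was at 1753 and 2132, 1.22-fold higher (0.28). Of the 87 members with a mean of at least 10, *Sdhd* was the single one that passed 1.2-fold upward.

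Complex III, the cytochrome c reductase, had 6 of 8 members lower in KO and a median of −0.26. Its 5 small subunits, which have no redox centre, were all lower, with a median of −0.29. *Uqcrb*, which helps to form the ubiquinone site, was at 1183 in WT and 856 in KO (−0.47). *Uqcr10* was at 2509 and 2014 (−0.32) and *Uqcr11* at 4204 and 3433 (−0.29). *Uqcrh*, the hinge protein, and *Uqcrq* lay within 1.2-fold, at −0.26 and −0.16. The 3 larger subunits were split. The core protein *Uqcrc1* was at 9464 and 7915 (−0.26), while its partner *Uqcrc2* was at 1936 and 2029 (0.07) and the Rieske iron-sulfur protein *Uqcrfs1* at 2100 and 2239 (0.09), the highest of the complex.

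Complex IV, cytochrome c oxidase, had 13 members above the minimum of 10, and all 13 were lower in KO, with a median of −0.19. *Cox7b*, a small subunit of the membrane part, lies on the plus strand of chromosome X (106015700 to 106022450, GRCm38). With 1344 normalized reads in WT and 819 in KO it was 1.64-fold lower (log2 ratio −0.71), and 3.42% of all genes lay at this ratio or lower. *Cox6c* was at 1698 and 1215 (−0.48) and *Cox8a* at 4415 and 3647 (−0.28). These 3 passed 1.2-fold (23.1%, near the 21.1% of all genes), which left 10 members between −0.24 and −0.02. Among the latter, *Cox4i1*, the largest nuclear subunit, was at 8752 and 7664 (−0.19), *Cox6a1* at 8797 and 7647 (−0.20), *Cox7a2* at 1863 and 1633 (−0.19) and *Cox6b1* at 5609 and 5108 (−0.14). The highest was *Cox7a2l* at 1739 and 1711 (−0.02). Its product is regarded as a factor for supercomplexes of complexes III and IV rather than as a subunit, and its action in these livers was not measured.

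Complex V, the ATP synthase, had 15 of 17 members lower in KO and a median of −0.14, nearer to the median of all genes than those of complexes I, III and IV. In the catalytic F1 head and central stalk, *Atp5b*, the β subunit, was at 22034 in WT and 19895 in KO (−0.15), *Atp5a1*, the α subunit, at 16310 and 17592 (0.11), and *Atp5d*, the δ subunit, at 13832 and 11126 (−0.31). The 4 genes of the peripheral stalk were all lower, *Atp5h* (subunit d) at 2803 and 2214 (−0.34) and *Atp5j* (coupling factor 6) at 1473 and 1251 (−0.24) among them. Of the membrane subunits outside the ring, *Atp5j2* (subunit f) was at 2687 and 2093 (−0.36), the lowest of the complex. The genes of the proton-carrying c ring stayed close to the median of all genes, with *Atp5g1* at 4671 and 4368 (−0.10), *Atp5g2* at 3009 and 2893 (−0.06) and *Atp5g3* at 6139 and 5924 (−0.05). The highest ratio, 0.13, was that of *Atp5sl*, which has the name but is not a subunit, at 749 and 822.

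Levels of different genes can be compared only per length, for which the values were divided by the length of the longest coding transcript of GENCODE M21. Summed over its members, complex I made up 28.5% of the total of all 90 genes, complex II 3.45%, complex III 13.4%, complex IV 25.9% and complex V 28.7%. The log2 ratio of KO over WT of these sums was −0.25 for complex I, −0.07 for complex II, −0.25 for complex III, −0.21 for complex IV and −0.14 for complex V, and −0.20 for all together. With the lengths of merged exons in place of transcripts, complex II came to −0.01. The highest mean level per kb, over both genotypes, was that of *Cox6a1* with 14400 normalized reads per kb, followed by *Atp5b* with 10942, and the highest of the other complexes were *Uqcr11* with 8581, *Ndufb9* with 5184 and *Sdhb* with 4353. The lowest of each complex were *Cox4i2* with 1.12, *Ndufaf5* with 19.3, *Atp5s* with 31.3, *Sdhc* with 765 and *Uqcrc2* with 1046 normalized reads per kb. The order depends on the transcript taken, since with the lengths given in the deposited table *Atp5d* was at 13404 and *Sdhc* at 2058.

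**Figure D2:**
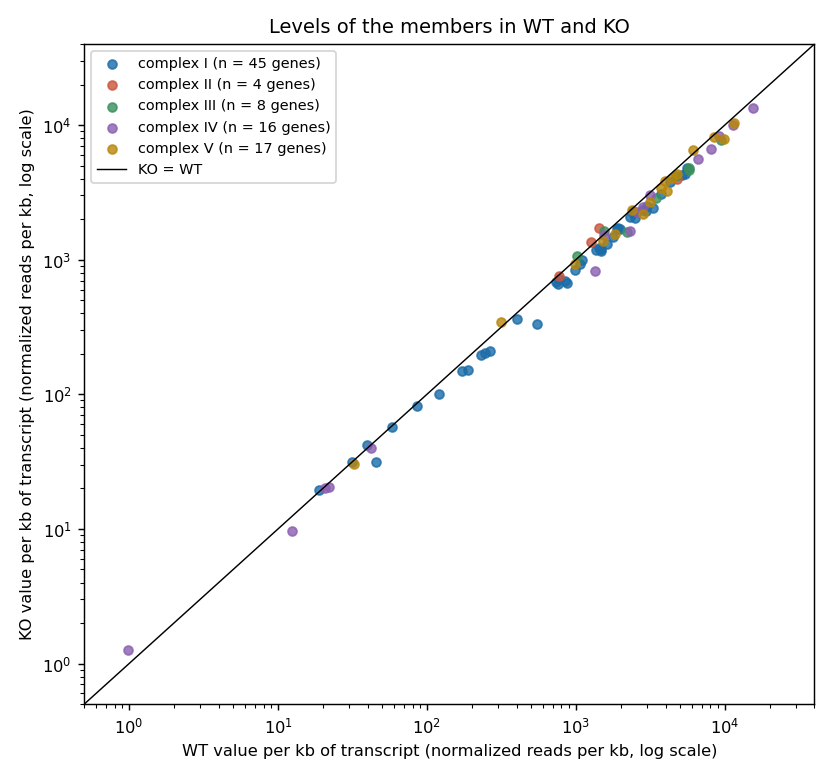
Value per kb of the longest coding transcript of all 90 members in WT (x axis) and KO (y axis), both in normalized reads per kb on log scales, with 1 point per gene coloured by complex and a line where both genotypes are equal. The points follow the line from *Cox4i2* at about 1 to *Cox6a1* at 14400 normalized reads per kb, most of them slightly below it. The values are those of the DESeq2 fit, in which *Cox4i2* has a WT value although its WT libraries held 0 reads.

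In several places mammals have a second gene for the same subunit, used in muscle, testis, lung or under low oxygen, and in these livers the widely used gene held nearly all of the level. Per kb, *Cox4i1* made up 99.99% of its pair with *Cox4i2*, *Cox6a1* 99.9% against *Cox6a2*, *Cox6b1* 99.5% against *Cox6b2*, *Cox8a* 99.7% against *Cox8b*, and *Ndufa4* 98.8% against *Ndufa4l2*. *Cox7a2* held 63.1%, *Cox7a2l* 36.4% and the muscle gene *Cox7a1* 0.504%. The 3 genes *Atp5g1*, *Atp5g2* and *Atp5g3* encode an identical mature c subunit, and 78 residues at the C terminus were the same in all pairs while no stretch over 21 bases of coding sequence was shared. *Atp5g3* held 63.1% of their level, *Atp5g2* 29.6% and *Atp5g1* 7.25%. The share of *Atp5g1* rests on an annotated transcript of 4715 bases, and with the deposited length of 802 bases it was 30.5%, with 44.7% for *Atp5g3*.

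For 8 weakly expressed members whole reads per library were recovered, since the mean over the 6 libraries is a sum of whole reads divided by known size factors. The libraries are known by genotype and size factor (1.22, 0.879 and 0.818 in WT, 1.31, 1.04 and 0.886 in KO) but not by pool number, and reads are given in that order. *Cox8b*, of heart and skeletal muscle, had 1, 14 and 5 reads in WT and 14, 5 and 5 in KO. *Cox6a2*, the muscle form of subunit VIa, had 6, 12 and 7 reads in WT and 5, 5 and 8 in KO. *Cox7a1* had 3, 13 and 13 reads in WT and 15, 6 and 10 in KO. For each of these the libraries of one genotype reached into the range of the other, and of the WT libraries the first was the lowest in all 3 genes. *Cox4i2*, the lung and low-oxygen form, had 0 reads in the 3 WT libraries and 5, 0 and 1 in KO, which is at least 1.55-fold higher in KO against a floor of 3 reads over the WT group, and a KO library at 0 overlapped the WT values. The bound rests on the KO library with 5 reads, without which the KO mean was 0.565 normalized reads, under the floor of 1.06.

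The other 4 had more reads and overlapped as well. *Ndufaf5*, a complex I assembly factor, had 26, 21 and 17 reads in WT and 28, 34 and 13 in KO. *Cox6b2*, the testis form, had 19, 27 and 23 reads in WT and 14, 15 and 39 in KO, where a single KO library exceeded all others. *Ndufa4l2*, the low-oxygen paralogue of *Ndufa4*, had 24, 37 and 22 reads in WT and 22, 38 and 31 in KO, about the same in both genotypes. *Atp5s*, known as factor B, had 75, 59 and 22 reads in WT and 71, 57 and 32 in KO. In normalized reads, *Atp5s* was at 51.7 ± 21.7 (SD, n = 3) in WT and 48.4 ± 10.7 in KO, and *Cox6a2* at 9.04 ± 4.39 and 5.89 ± 2.77. The two-sided exact permutation test of the difference in means, with n = 3 per genotype, gave p between 0.4 and 1 for the 8 genes. After Benjamini-Hochberg adjustment over the 8, p was 0.914 or 1. The smallest p possible in this test is 0.1 where no values are tied. For *Cox4i2*, with most libraries tied at 0 reads, the smallest p possible was the 0.4 that it gave. Its test could not have come out lower and decides nothing. The log2 ratio from the deposited values was nearer to 0 than that from the reads in 6 of the 7 genes with reads in both genotypes, by most in *Cox6a2* (−0.36 against −0.62) and by little in *Atp5s* (−0.08 against −0.10), and the exception, *Ndufa4l2*, was at 0.00 in both. Pools of 3 mice enter each library, so the spread is that between pools.

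**Figure D3:**
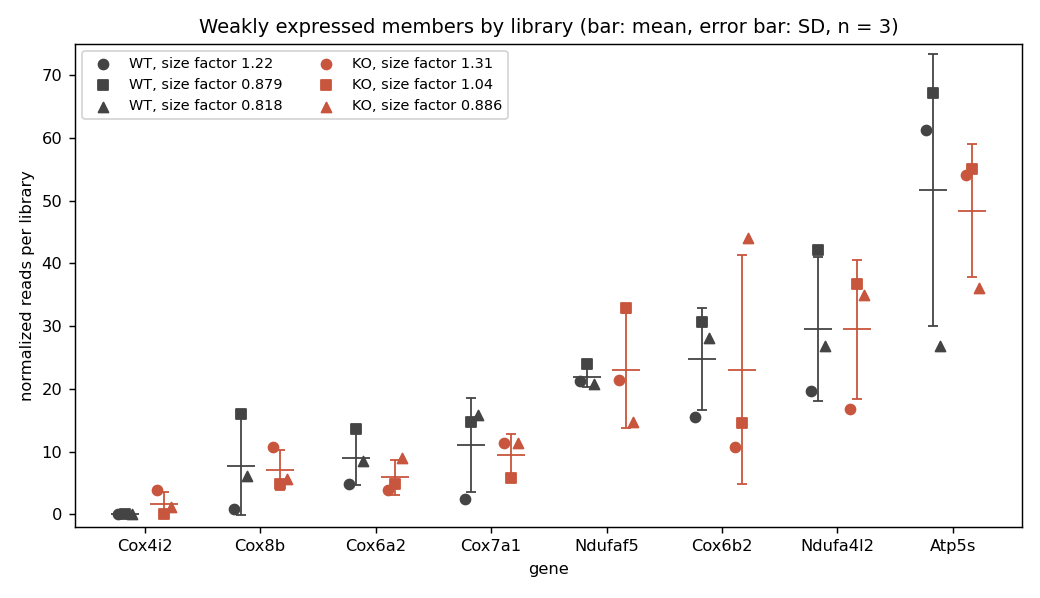
Normalized reads (y axis) of 8 weakly expressed members (x axis) in the 3 WT and the 3 KO libraries, with 1 symbol per library, the mean as a horizontal bar and the SD as an error bar (n = 3). The WT and KO symbols overlap for all 8 genes, and *Cox6b2* has a single KO library above the rest.

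The genes of other tissues gave low values too. Of the 7 genes fixed as markers of striated muscle 6 were listed, and 4 of these were under 10 normalized reads on average. Their sum was 82.5 in WT and 127 in KO, of which *Myh6* held 58.5 and 92.5, and the skeletal muscle gene *Ckm* was at 2.93 and 5.18. *Ucp1*, of brown fat, was at 4.57 and 4.92, and 0 of 3 testis markers were listed. Their part in the reads of the muscle and testis forms was not tested. Among the markers of liver cells, the sum over the 6 hepatocyte genes was 0.916 times as high in KO as in WT. Over the 6 genes of Kupffer cells the sum was 1.15 times as high. It was 0.968 times for the 5 of endothelium and 0.954 times for the 4 of bile duct. Each of these lists held genes of both directions. Of the hepatocyte genes 4 were lower and 2 were higher in KO. The fall in their sum was largest in *Apoa1* (667133 in WT, 505509 in KO). *Alb* had a log2 ratio of 0.0033 and *Hnf4a* of 0.23. Of the Kupffer cell genes 1 was lower and 5 were higher, of endothelium 3 and 2, and of bile duct 3 and 1. The 5 stellate cell genes were split, since their sum was 0.887 times as high but rests on *Dcn* (1296 in WT, 915 in KO), while *Col1a1*, *Col3a1* and *Reln* were higher in KO by 1.69-fold, 1.47-fold and 1.12-fold. All 5 red cell genes, which code for globins and for the first enzyme of haem synthesis in red cells, were higher in KO, from 1.32-fold for *Alas2* to 1.73-fold for *Hbb-bs*, with 1.52 times the sum. Fewer cells of a type and less RNA per cell cannot be told apart in bulk liver, and the part of these shifts in the lower values of the members was not tested.

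The members have short transcripts, which their choice did not use. Their longest coding transcripts had a median of 955 bases, against 3094 over all genes with a known length. Short genes as a whole were lower in KO. Among genes that are no members, the median log2 ratio was −0.21 for transcripts under 1 kb, −0.10 from 1 to 2 kb, −0.02 from 2 to 4 kb and 0.00 from 4 kb. The members had medians of −0.23 (46 genes), −0.16 (29 genes), −0.08 (10 genes) and −0.15 (2 genes) in the same classes. Under 1 kb, 39.1% of the members and 38.0% of the 510 other genes were lower by 1.2-fold or more, and from 1 to 2 kb 27.6% of the members and 20.2% of 2237 other genes. The members and the other genes thus had medians close to each other in the shortest class, which holds most members, while from 1 to 2 kb the members had the lower median. The classes depend on the length taken. The 2 members from 4 kb were *Atp5g1* and *Ndufb2*, with deposited lengths of 802 and 455 bases. By deposited lengths, an alternative chosen after seeing the data, 0 members were in that class. From 1 to 2 kb, 20.8% of 24 members and 19.8% of 2661 other genes were then lower by 1.2-fold or more, with medians of −0.13 and −0.09. The cytosolic ribosomal proteins (median length 914 bases, median log2 ratio −0.26) were not taken out of the other genes. Among genes with a mean of at least 1000 normalized reads, the medians under 1 kb were −0.24 for 36 members and −0.23 for 157 others. Across the 87 members, the log2 ratio and the log2 length had a Spearman rho of 0.29 and a Pearson r of 0.28, and across 11068 genes rho was 0.16. These are across genes of the same libraries, which are not independent replicates. GC content of the transcript had a rho of −0.08 with the log2 ratio in the members and 0.22 in all genes, with a median GC of 50.3% in the members and 50.6% in all genes. *Ndufa5* and *Cox7b* lay well under the median of their classes, and *Sdhd* well above it.

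**Figure D4:**
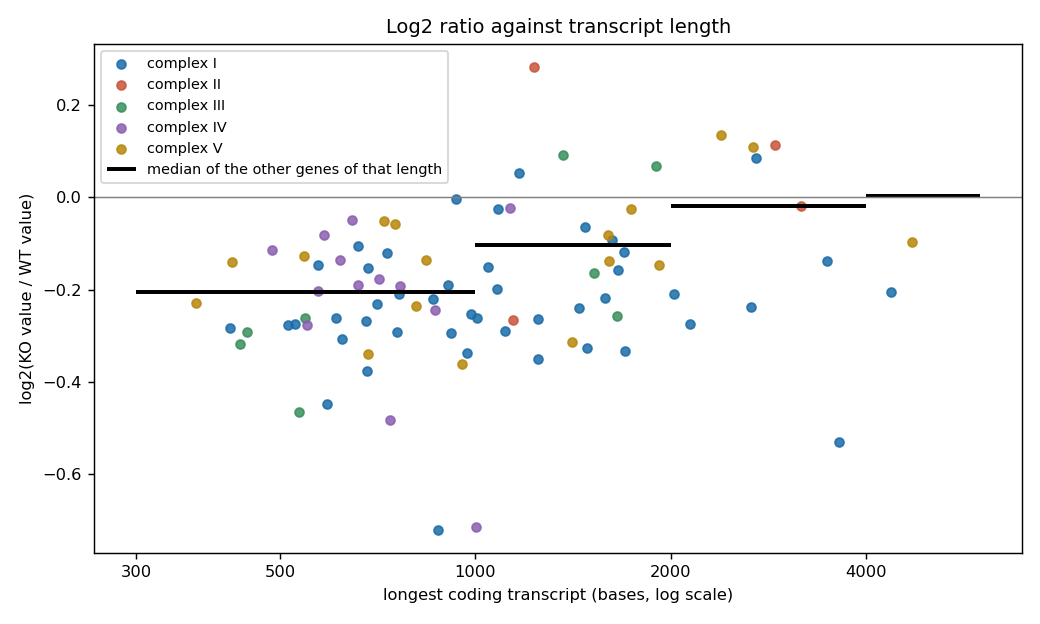
Log2 ratio of the KO over the WT value (y axis) against the length of the longest coding transcript in bases (x axis, log scale) of the 87 members, coloured by complex, with the median of all other genes of each length class as a black bar, the outer bars cut short at the edges of the plot. The bars step up from −0.21 under 1 kb to 0.00 from 4 kb, and the members scatter around them, with *Ndufa5* and *Cox7b* at −0.72 and −0.71.

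Other large assemblies were compared by their values alone. The 77 mitochondrial ribosomal proteins (median length 1316 bases) had a median of −0.18, with 20 lower by 1.2-fold or more (26.0%, where 21.1% of all genes were) and 0 higher. The 82 cytosolic ribosomal proteins (914 bases) were lower still, with a median of −0.26, 41 lower (50%) and 0 higher. For the 37 proteasome subunits (1581 bases) the median was −0.06, near that of all genes, with 4 lower (10.8%) and 1 higher. The oxidative phosphorylation genes at −0.21 thus lay between both kinds of ribosomal protein.

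**Figure D5:**
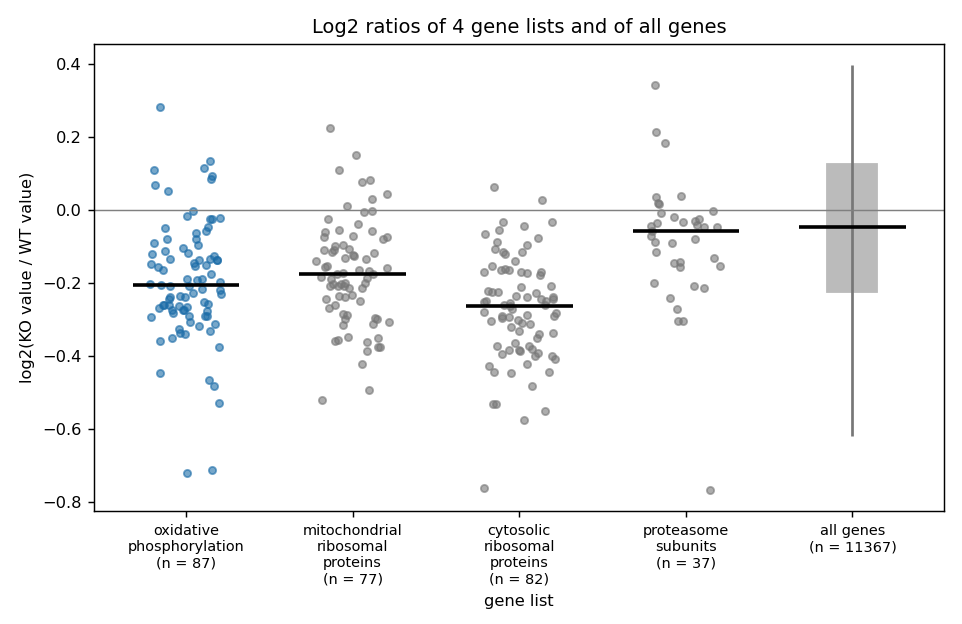
Log2 ratio of the KO over the WT value (y axis) for 4 gene lists and for all genes (x axis), with 1 point per gene, spread sideways at random, and the median as a black bar, while for all genes the box spans the quartiles and the line the percentiles 5 to 95. The medians are −0.21 for oxidative phosphorylation, −0.18 and −0.26 for mitochondrial and cytosolic ribosomal proteins, −0.06 for the proteasome and −0.05 for all genes.

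The genes that build, feed and regulate the complexes were more mixed, and their counts are to be read against the 21.1% of all genes lower and 11.7% higher by the same factor. Outside the naming rule, 10 assembly factors of complex I had a median of −0.07, with 3 lower by 1.2-fold or more (30%) and 0 higher, from *Tmem126b*, of the membrane arm, at 55.6 in WT and 39.7 in KO (−0.49) to *Nubpl*, which supplies iron-sulfur clusters, at 47.8 and 53.1 (0.15). The 10 assembly factors of complexes II and III had a median of −0.03, with 1 lower (10%), *Uqcc2* at 464 and 348 (−0.41), and *Lyrm7*, which brings in the Rieske protein, highest at 23.8 and 26.9 (0.17). Of 24 assembly factors of complex IV, 6 were lower (25%) and 1 was higher (median −0.10). *Cox20*, a chaperone of the mitochondrially encoded subunit II, was at 132 and 80.8 (−0.71), and *Coa5* at 623 and 818 (0.39). Among 6 assembly factors and regulators of the ATP synthase, 3 were lower (50%) and 0 higher (median −0.20). *Atpif1*, the inhibitor that stops the enzyme from splitting ATP, was at 190 and 135 (−0.49), and *Atpaf2* at 325 and 351 (0.11).

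The 17 genes of electron carriers and of electron entry had a median of −0.13, with 6 lower (35.3%) and 0 higher. *Cycs*, cytochrome c, was at 1190 in WT and 902 in KO (−0.40), and *Coq8a* (listed as *Adck3*), needed for the synthesis of ubiquinone, at 5245 and 3374 (−0.64), the lowest of this list, while *Coq10b*, a ubiquinone-binding protein, was highest at 138 and 161 (0.22). *Cyc1*, the cytochrome of complex III, was at 4569 and 3968 (−0.20). The 17 enzymes of the citrate cycle and of pyruvate dehydrogenase had a median of −0.05, with 4 lower (23.5%) and 0 higher, from *Sucla2*, of succinyl-CoA ligase, at 635 and 447 (−0.51) to *Dlat*, of pyruvate dehydrogenase, at 330 and 394 (0.26). Among 14 regulators of mitochondrial biogenesis, the median was 0.09, with 4 lower (28.6%) and 1 higher. *Gabpa*, an ETS factor that binds the promoters of many respiratory genes, was at 156 and 102 (−0.62), and the coactivator *Ppargc1a* at 103 and 76.2 (−0.44). Their relatives in the list, *Gabpb1* and *Ppargc1b*, went the other way, within 1.2-fold, at 0.19 and 0.24. *Nrf1*, *Esrra* and *Yy1* also lay within 1.2-fold, at 0.10, 0.07 and 0.11. *Ppara*, the receptor that drives fatty acid oxidation in fasting, was highest at 3501 and 4872 (0.48).

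A promoter window was found for 75 of the 90 members, and the 6 motifs were searched in it on both strands. The NRF1 core was in 10 windows (13.3%), against 3.93% of the windows of 9104 genes with a mean of at least 10 and 1.91% of all 27025 windows. The ERR letters were in 8 (10.7%, against 3.41% of expressed genes and 4.66% of all) and the YY1 letters in 11 (14.7%, against 8.60% and 4.19%). The ETS letters were in 16 (21.3%, against 18.8% and 9.12%), the CRE letters in 4 (5.33%, against 3.23% and 1.88%) and the SP letters in 33 (44.0%, against 64.6% and 35.9%). In 19 windows there was no match. The log2 ratios of KO over WT differed little between members with and without a motif, with medians of −0.22 for the members with and −0.21 for those without the NRF1 core, −0.17 and −0.22 for ERR, −0.25 and −0.21 for YY1 and −0.22 and −0.21 for ETS. Of the windows printed above, *Ndufs5* and *Sdhd* both had the ERR letters and had ratios of −0.38 and 0.28. A match to these letters is a description of the window and does not show binding.

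Reads of some members can also stem from other genes. Of the 90 members, 60 shared no stretch of 100 bases, the read length, with the transcript of another gene in GENCODE M21, and *Ndufa5* and *Cox7b* were among these. *Atp5l* shared 69.0% of its stretches, *Ndufb4* 33.4%, *Atp5o* 30.3%, *Atp5h* 29.5%, *Ndufb6* 28.2%, *Ndufa13* 23.96%, *Uqcrc2* 22.7%, *Ndufs3* 19.9%, *Ndufs5* 19.8%, *Cox7c* 19.7%, *Ndufa12* 17.7%, *Ndufb9* 17.02%, *Atp5f1* 16.8% and *Uqcrb* 15.8% with other transcripts, so that the values of these are less certain. Counting error varied with the level. Over the members with a mean of at least 10 normalized reads, its 95% interval on the log2 ratio reached a median of 0.056 to either side. It reached up to 0.767 in a single weak member. Members under that mean are not included. For *Uqcrh*, which had the median mean value of the members included, the log2 ratio of −0.26 had a 95% exact (Clopper-Pearson) interval of −0.32 to −0.20. This covers counting error only and not the spread between pools.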

How the data were processed

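RNAseq of liver was analysed in 6 libraries, 3 per genotype, matched to genotype and pool through the sample labels. The authors deposited 1 expression signal per gene and genotype, in reads divided by DESeq2 size factors. The midpoint of both values is the mean over the 6 libraries, and their ratio is that of the DESeq2 fit, shrunken toward 0. Clean read counts per library were deposited, and the mapped and ribosomal shares in percent. The submitters' processing notes name HISAT2, StringTie, Cufflinks, GATK, Bowtie2, RSEM and mm10, without roles. Which program counted the reads is not given in the sources used here. The log2 ratio, p-value and adjusted p-value columns of the authors' comparison were not used, and the splicing event table was not used.

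Log2 ratios were calculated from both values without a pseudocount, for genes with a mean of at least 10. A count test was planned for the case of counts per library, so the branch without a test was used. A factor of 1.2 named genes. Lengths, GC contents and positions came from GENCODE M21 (GRCm38), in which all 90 members were matched, and promoters from RefSeq GRCm38.p6. Where a gene had several windows (6 members) the one listed first was searched. Coding sequences of paralogues were compared by alignment. Reads of weak members were recovered by enumerating whole reads per library up to a sum of 600 normalized reads, allowing for 2.5 times their rounding, with size factors taken from values that at least 20 genes shared. Of 10 members tried, 8 gave a single solution. On simulated data for this step, 54 of 60 genes were resolved, all 54 correctly. Differences were tested with two-sided exact permutation tests.

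Genes named one by one are all members past 1.2-fold, the highest and the lowest ratio and level per kb of each complex, the paralogue groups, the core subunits of complex I, the *Sdh* genes, members with a mean under 10, and the extremes of each further list. A single gene that this rule names is not reported here. *Cycs*, *Cyc1*, *Ppargc1a*, *Ppargc1b*, *Gabpb1*, *Nrf1*, *Esrra*, *Yy1* and some members within the factor (*Ndufb2*, *Ndufb6*, *Uqcrh*, *Uqcrq*, *Uqcrc1*, *Atp5a1*, *Atp5l*, *Atp5o*, *Atp5f1*, *Cox7c*) were named after their values were seen, as were the marker genes given singly. The members and lists were chosen with earlier results of these data known. Alternatives were a pseudocount of 1, other minimum values, factors of 1.1 and 1.5, centring on all genes, other lengths, and each recovered library left out. The analysis used Python 3.11.15, numpy 2.4.6, pandas 2.3.3, scipy 1.17.1, biopython 1.88 and matplotlib 3.10.9.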

Additional observations from a re-analysis of the deposited data

How the results depend on the processing

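The count of 28 members lower by 1.2-fold rests on the factor and on the centre. Centred on the median of all genes (−0.05), 15 members (17.2%) were lower and 1 (1.15%) was higher, where 17.3% and 15.3% of all genes were, and 74 of 87 lay below that median. At 1.1-fold 59 (67.8%) were lower and 1 (1.15%) was higher, where 35.9% and 23.4% of all genes were. At 1.5-fold 2 (2.30%) were lower and 0 higher, where 5.79% and 1.57% of all genes were. A pseudocount of 1 gave 27 lower (31.0%) and 1 higher (1.15%), where 20.85% and 11.4% of all genes were. With a minimum mean of 100, 27 of 80 members and 14.8% of all genes were lower, and with 1000, 19 of 64 members and 11.7% were. The ratio of the summed levels of complex II was −0.07, and −0.0095 with merged exons. With deposited lengths, an alternative chosen after seeing the data, the median of the members from 2 to 4 kb was 0.05 instead of −0.08, over 7 in place of 10 genes. From 4 kb there were then 0 members in place of 2. From 1 to 2 kb, 20.8% of the members and 19.8% of the other genes were lower, where transcript lengths gave 27.6% and 20.2%.

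The difference in normalized reads (KO minus WT) of single weak members turned with the library left out. It ran from −3.97 to 3.58 for *Cox8b*, from −5.84 to 0.887 for *Cox7a1*, from −3.96 to 5.11 for *Ndufaf5*, from −12.2 to 4.48 for *Cox6b2*, from −5.01 to 6.32 for *Ndufa4l2* and from −15.8 to 4.35 for *Atp5s*. *Cox4i2* (0.565 to 2.47) and *Cox6a2* (−5.21 to −0.839) kept their sign. No library can be left out for the stronger members. No paired analysis was possible because the genotypes share 1 pool number and the table holds 1 value per genotype.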
